A study of Sus scrofa with 6 samples.

Results

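The 8 genes described here are the 4 myogenic regulatory factors MYOD1, MYF5, MYF6 and MYOG, the paired-box factors PAX3 and PAX7, the growth inhibitor MSTN (myostatin) and the fusion protein MYMK (myomaker). They were chosen by symbol in the Ensembl annotation of the Sscrofa11.1 assembly, and each matched 1 gene of the 25973 with an mRNA in the files. RNA was sequenced from longissimus thoracis (LT, a muscle of the back) and semitendinosus (ST, a muscle of the hind limb) of 3 Min pigs, a Chinese breed, aged 210 days. This gave 6 libraries, 3 per muscle, and LT and ST samples with the same number were taken here to come from the same pig. Each sample was a piece of whole muscle, so fewer cells of a type and less RNA per cell cannot be told apart. The values are FPKM, fragments scaled by the length of a transcript and by all mapped fragments of its library, which the authors deposited per transcript and which were summed here per gene. The files hold no counts, so the number of fragments behind a single value is not given. It was not estimated from the read numbers that the study reports.

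Muscle fibres are formed by myoblasts that fuse. In the adult the myoblasts come from satellite cells, stem cells that lie under the sheath of each fibre and express PAX7. The paired-box factors act before the myogenic regulatory factors, of which MYF5 and MYOD1 commit a cell to the muscle lineage and MYOG drives its differentiation. MYF6, also called MRF4, is the member of the family that mature fibres keep expressing. MYMK is a membrane protein of myoblasts needed for fusion, and MSTN is a secreted factor, made mainly by the fibres, that limits muscle mass.

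The genes were compared between the muscles with limma on log2(FPKM + 0.1), over 19679 genes with FPKM above 0.1 in at least 1 library. A gene was called when its log2 fold change (log2FC, ST minus LT) was above 1 in absolute size and its p, adjusted by Benjamini-Hochberg, was under 0.05. All genes together had a median log2FC of 0.13, which became −0.01 after quantile normalization and 0.20 when FPKM was rescaled without mitochondrial transcripts. Mitochondrial transcripts made up 2.91% to 4.25% of FPKM times length in LT and 6.15% to 8.48% in ST. Genes of the muscle fibre were abundant in all 6 libraries, with ACTA1, skeletal actin, between 1768 and 3025 FPKM.

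One library stood apart. In all 12 fibre-type genes found, ST of pig 2 was the ST library nearest to the LT mean, whereas it was the nearest for 41.9% of all genes tested. Over all genes its Spearman correlation was 0.964, 0.968 and 0.962 with LT of pigs 1, 2 and 3. With ST of pigs 1 and 3 it was 0.966 and 0.963, whereas these correlated with each other at 0.975. Its share of mitochondrial transcripts was the lowest of ST, 6.15% against 8.06% and 8.48%. For example, TNNI2, the inhibitory troponin of fast fibres, was at 8020, 8404 and 7527 FPKM in LT and at 1464, 6024 and 458 in ST of pigs 1, 2 and 3. TNNT1, troponin T of slow fibres, was at 348, 207 and 246 FPKM in LT and at 1746, 382 and 2079 in ST. For the 8 genes, values without ST of pig 2 are given below where they move the log2FC by over 1.5 times or change a call. For other genes such values are given in part.

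MSTN was lower in ST than in LT in each of the 3 pigs, and it was the single gene of the 8 whose LT and ST values did not overlap, against 24.8% of all genes. The other genes overlapped between the muscles. MYF6 was the most abundant of the 8 in every library, and PAX3 was close to 0 in all of them. Of the 7 genes tested, 0 were called, against 114 of all 19679 genes (0.579%), and 1 had an unadjusted p under 0.05, against 19% of all genes. With the pig as a block in the model, 1 was called, MSTN, against 838 of all genes (4.26%). Of the 7 genes 4 had a log2FC above 0 and 3 below, with a median absolute log2FC of 0.69 against 0.33 over all genes tested.

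**Figure D1:**
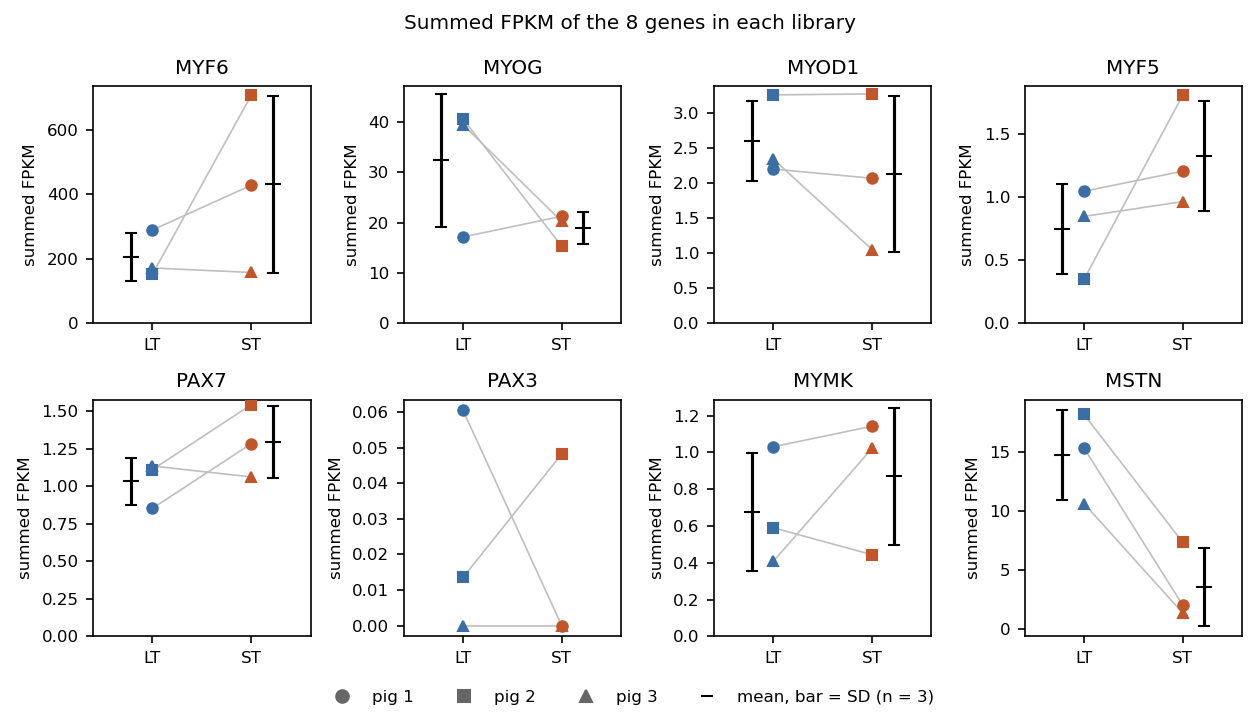
Summed FPKM (linear axes, each with its own range) of the 8 genes in LT and ST of the 3 pigs. Each point is a library, grey lines join LT and ST of a pig, and black bars give the mean and SD (n = 3), left out for PAX3, which is listed at 0 in 3 libraries. MSTN is the gene whose LT values (10.6 to 18.2) all lie above its ST values (1.38 to 7.36).

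The order of the mean levels was MYF6, MYOG, MSTN, MYOD1, PAX7, MYF5 and MYMK, with PAX3 below the filter. FPKM is scaled by transcript length, so levels of different genes can be set side by side. MYF6 lay above MYOG in 6 of 6 libraries, by 12.4-fold in the means, and their ranges did not overlap. All later neighbours in the order had overlapping ranges. MYOG lay above MSTN in 6 of 6 libraries, MSTN above MYOD1 and MYOD1 above PAX7 in 5 of 6, and PAX7 above MYF5 and MYF5 above MYMK in 4 of 6. Among all genes tested, the mean of MYF6 was at percentile 99.3 and that of MYOG at 92.8, whereas MYOD1 (57.0), PAX7 (45.2), MYF5 (43.3) and MYMK (38.1) were in the middle range.

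MYF6 (ENSSSCG00000026533, chromosome 5, 100762910 to 100765704, minus strand) was at 289, 152 and 171 FPKM in LT and at 428, 707 and 157 in ST of pigs 1, 2 and 3. The muscles overlapped, since ST of pig 3 was lower than LT of pigs 1 and 3, and ST of pig 2 was the highest library. LT had a mean of 204 ± 74.2 (SD, n = 3) and ST one of 431 ± 275 (SD, n = 3). The log2FC was 0.89 (SE 0.53, 95% confidence interval −0.32 to 2.10, limma adjusted p = 0.401), with ST higher in 2 of 3 pigs. Without ST of pig 2 it was 0.41, and without ST of pig 3 it was 1.49, with limma adjusted p of 0.630 and 0.184. The interval holds no difference as well as one of more than 2-fold.

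MYF6 made up most of the FPKM of the 4 myogenic regulatory factors. In LT its share of their sum was 93.4%, 77.4% and 79.99%, and in ST it was 94.6%, 97.2% and 87.6%. For MYOG the shares were 5.54%, 20.7% and 18.5% in LT, and 4.70%, 2.10% and 11.3% in the ST libraries. MYF5 made up at most 0.539% in any library. For MYF6 and MYOG the shares of LT of pig 1 lay within the range of ST, so the muscles overlapped. The MYOD1 shares were 0.710%, 1.66% and 1.09% in LT, all above those of ST at 0.456%, 0.449% and 0.583%. Shares were not tested. MYF6 makes up most of the sum, so this separation largely restates the ratio of MYF6 to MYOD1, given below with its test. The FPKM of MYOD1 itself overlapped between the muscles, and the size of its share depends on the length of its transcript model, described below.

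The annotation holds 2 MYF6 transcripts. ENSSSCT00000001023 carried nearly all of the signal. ENSSSCT00000078484, whose model starts further upstream, was at 0.0831, 0.589 and 0.0585 FPKM in LT and at 0.459, 10.7 and 0.00562 in ST. It reached 1.52% of the MYF6 sum in ST of pig 2 and at most 0.388% elsewhere. Its log2FC was 1.67 (SE 1.64, limma adjusted p = 0.727) and −0.16 without ST of pig 2, so its direction rested on that library. None of the transcripts of the 8 genes was called in the fit over 52102 transcripts, in which 76 were (0.146%).

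MYOG (ENSSSCG00000034654, chromosome 9, 113782469 to 113785362, minus strand), the factor of differentiation, was at 17.1, 40.6 and 39.5 FPKM in LT and at 21.2, 15.3 and 20.2 in ST. LT of pig 1 lay within the range of ST, and the other LT libraries lay above all of ST. LT had a mean of 32.4 ± 13.3 (SD, n = 3) and ST one of 18.9 ± 3.19 (SD, n = 3). The log2FC was −0.69 (SE 0.34, 95% confidence interval −1.47 to 0.10, limma adjusted p = 0.318). Without LT of pig 1 it was −1.09, with a limma adjusted p of 0.146, and over all alternatives the adjusted p was between 0.146 and 0.616. All of the signal came from its 1 transcript, ENSSSCT00000065761.

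MYOD1 (ENSSSCG00000013375, chromosome 2, 41415735 to 41425234, minus strand), which can turn other cells into muscle, was at 2.19, 3.25 and 2.33 FPKM in LT and at 2.06, 3.27 and 1.04 in ST. ST of pigs 1 and 2 was near LT of the same pigs, and ST of pig 3 was the lowest library. LT had a mean of 2.59 ± 0.575 (SD, n = 3) and ST one of 2.12 ± 1.11 (SD, n = 3). The log2FC was −0.39 (SE 0.38, 95% confidence interval −1.27 to 0.49, limma adjusted p = 0.626), and it was −0.76 without ST of pig 2 and 0.023 without ST of pig 3. Its transcript, ENSSSCT00000014609, is 8745 bases long on a span of 9500 bp, whereas RefSeq gives the gene a span of 1715 bp on the same assembly. FPKM divides by the longer length, so the place of MYOD1 in the order of levels depends on that model.

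MYF5 (ENSSSCG00000000937, chromosome 5, 100752890 to 100755494, minus strand) lies 7415 bp from MYF6 on the same strand. It was at 1.05, 0.346 and 0.847 FPKM in LT and at 1.21, 1.81 and 0.966 in ST. ST was the higher muscle in 3 of 3 pigs, by 0.19, 2.10 and 0.17 on the log2 scale, so nearly all of the difference came from pig 2. The same direction in all 3 pigs was found for 48% of all genes. LT had a mean of 0.747 ± 0.362 (SD, n = 3) and ST one of 1.33 ± 0.436 (SD, n = 3), with a log2FC of 0.82 (SE 0.40, 95% confidence interval −0.09 to 1.73, limma adjusted p = 0.309). Without LT of pig 2 it was 0.41. The signal came from ENSSSCT00000070997, and the other transcript, ENSSSCT00000001024, was listed at 0 in all 6 libraries. In both MYF5 and MYF6, ST of pig 2 was the highest library and LT of pig 2 the lowest.

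PAX7 (ENSSSCG00000034627, chromosome 6, 77161097 to 77267415, plus strand), the marker of satellite cells, was at 0.853, 1.11 and 1.13 FPKM in LT and at 1.28, 1.54 and 1.06 in ST. The muscles overlapped in a narrow range, and the means were 1.03 ± 0.156 (SD, n = 3) and 1.30 ± 0.241 (SD, n = 3). The log2FC was 0.30 (SE 0.24, 95% confidence interval −0.25 to 0.84, limma adjusted p = 0.538). In this fit of all 6 libraries a difference of 2-fold in either direction lay outside the interval. The log2FC was 0.18 without LT of pig 1, 0.17 without ST of pig 2 and 0.42 without ST of pig 3. Intervals of these smaller fits are not given. Most of the PAX7 signal came from ENSSSCT00000040423.

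PAX3 (ENSSSCG00000028418, chromosome 15, 124095224 to 124193011, minus strand), which acts in the muscle precursors of the embryo, was at 0.0605, 0.0135 and 0 FPKM in LT and at 0, 0.0482 and 0 in ST. These values were under the filter, and PAX3 was not tested. MYMK (ENSSSCG00000022891, chromosome 1, 273101674 to 273111727, minus strand) was at 1.03, 0.590 and 0.409 FPKM in LT and at 1.14, 0.444 and 1.02 in ST. Neither muscle was the higher in all pigs, and the log2FC was 0.31 (SE 0.41, 95% confidence interval −0.64 to 1.26, limma adjusted p = 0.730). Leaving out 1 library gave 0.046 (LT of pig 3) to 0.68 (ST of pig 2), with 0.088 without ST of pig 1 and 0.16 without ST of pig 3.

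MSTN (ENSSSCG00000016047, chromosome 15, 94620269 to 94628546, minus strand) was at 15.3, 18.2 and 10.6 FPKM in LT and at 2.04, 7.36 and 1.38 in ST. All ST libraries lay below all LT libraries, with ST of pig 2 the nearest to LT. Such a separation with ST the lower was found for 8.16% of all genes. LT had a mean of 14.7 ± 3.81 (SD, n = 3) and ST one of 3.59 ± 3.28 (SD, n = 3), a 4.10-fold lower level. Within the pigs the log2 difference was −2.85, −1.29 and −2.86.

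The log2FC of MSTN was −2.34 (SE 0.54, 95% confidence interval −3.59 to −1.08). Its limma adjusted p was 0.0830, so MSTN was not called, and a 2-sided exact permutation test gave p = 0.1, the smallest value that 3 against 3 libraries allow. Among all genes tested, 71 (0.361%) had a log2FC as low, and 622 (3.16%) had a p as small. With the pig as a block the SE was 0.32 and the limma adjusted p was 0.0223, a call. Without ST of pig 2 the log2FC was −3.02 and the limma adjusted p was 0.00352, also a call, in a fit that called 5.15% of all genes. In the fit over single transcripts its 1 transcript, ENSSSCT00000017472, had a limma adjusted p of 0.330 and was not called, but without ST of pig 2 it was, with 0.0404. Over all alternatives the log2FC of the gene was between −3.02 and −1.86 and the limma adjusted p between 0.00352 and 0.257.

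**Figure D2:**
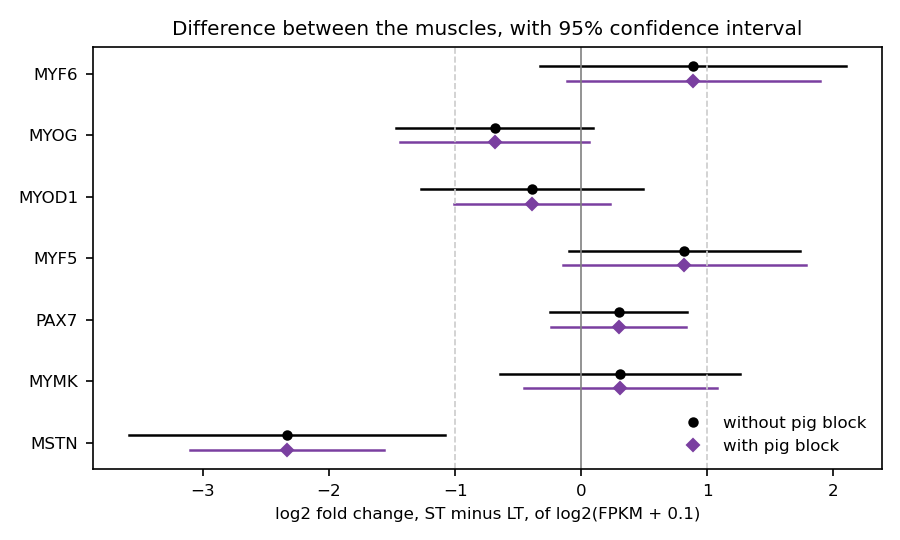
Log2FC (ST minus LT, of log2(FPKM + 0.1)) of the 7 genes tested, with 95% confidence intervals from limma without the pig (black circles) and with the pig as a block (purple diamonds); dashed lines mark −1 and 1. The interval of MSTN, −3.59 to −1.08 without the block, is the one that leaves out 0.

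A ratio of 2 genes within a library takes out the scaling between libraries, apart from the effect of the pseudocount on low genes. Of 6 pairs compared, MYF6 to MYOD1 was the pair whose muscles did not overlap. In LT the log2 ratio was 6.98, 5.50 and 6.13, against 7.63, 7.72 and 7.10 in ST, a difference of 1.28 with ST higher in 3 of 3 pigs. The exact permutation p was 0.1, the smallest possible, and 0.6 after adjustment over the 6 pairs. With a pseudocount of 1 the muscles overlapped and the exact permutation p was 0.2. The differences of the other pairs were 1.57 for MYF6 to MYOG, 0.30 for MYOD1 to MYOG, −0.52 for PAX7 to MYF5 and −1.65 for MSTN to MYOG, with exact permutation p from 0.2 to 0.7. Without ST of pig 2 they were 0.95, −0.21, −0.42 and −2.48, so the direction of MYOD1 to MYOG rested on that library. Without LT of pig 2, PAX7 to MYF5 was −0.06. The ratio of PAX7 to PAX3, the sixth pair, is set by the pseudocount in the 3 libraries that list PAX3 at 0, and nothing is read from it.

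The myostatin pathway was described with 22 genes, of which 21 were found and tested. MSTN signals through activin receptors and SMAD proteins and is held inactive by binding proteins. Without the block 0 of 21 were called by limma, and 5 were higher and 3 lower in ST at an unadjusted p under 0.05, or 38.1% against 19% of all genes. With the pig as a block, 3 were called higher (2.95% of all genes) and 2 lower (1.31% of all genes). The median log2FC was 0.20, against 0.13 over all genes.

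Of the binding proteins in the list, FST and WFIKKN2 had the direction of MSTN, and WFIKKN1, FSTL3 and LTBP3 did not. FSTL3 (log2FC 0.04, and −0.33 without ST of pig 2) and LTBP3 (log2FC 0.27) overlapped between the muscles, as did DCN, given below. FST, follistatin, was at 4.36, 2.91 and 3.21 FPKM in LT and at 1.89, 0.879 and 0.481 in ST (log2FC −1.76, SE 0.42, limma adjusted p = 0.0877, with the block 0.0280). WFIKKN2, which binds MSTN and its propeptide, was at 1.84, 1.37 and 1.05 FPKM in LT and at 0.290, 0.766 and 0.110 in ST (log2FC −1.84, SE 0.49, limma adjusted p = 0.110, with the block 0.0401). In neither gene did the muscles overlap. Without ST of pig 2 the limma adjusted p was 0.0875 for FST, not a call, and 0.0166 for WFIKKN2, a call.

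WFIKKN1, the paralog of WFIKKN2, was at 0.249, 0.179 and 0.277 FPKM in LT and at 0.710, 0.166 and 1.73 in ST (log2FC 1.14, SE 0.62, limma adjusted p = 0.362). ST of pig 2 was the lowest library, and without it WFIKKN1 was called higher, with a log2FC of 1.87 and a limma adjusted p of 0.0395. As for MSTN, ST of pig 2 was the highest ST library of WFIKKN2, whereas ST of pig 1 was the highest of FST.

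BMP1, SMAD7 and INHBB had the opposite direction and were the 3 genes called higher with the block. BMP1, a protease that releases MSTN from its propeptide, was at 1.54, 1.55 and 2.52 FPKM in LT and at 3.74, 3.98 and 4.92 in ST (log2FC 1.16, limma adjusted p = 0.0726). SMAD7, the inhibitory SMAD, was at 1.95, 1.72 and 2.001 FPKM in LT and at 5.84, 3.01 and 5.55 in ST (log2FC 1.25, limma adjusted p = 0.0752). INHBB, a subunit of activin B, had a log2FC of 1.37 (limma adjusted p = 0.110). Without ST of pig 2, SMAD7 was called (limma adjusted p = 0.00886), and BMP1 (0.0547) and INHBB (0.0915) were not. SMAD4, the shared partner of the SMADs, had a log2FC of −0.57, and the abundant DCN (decorin) and FSTL1, with 0.04 and 0.30, overlapped between the muscles.

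**Figure D3:**
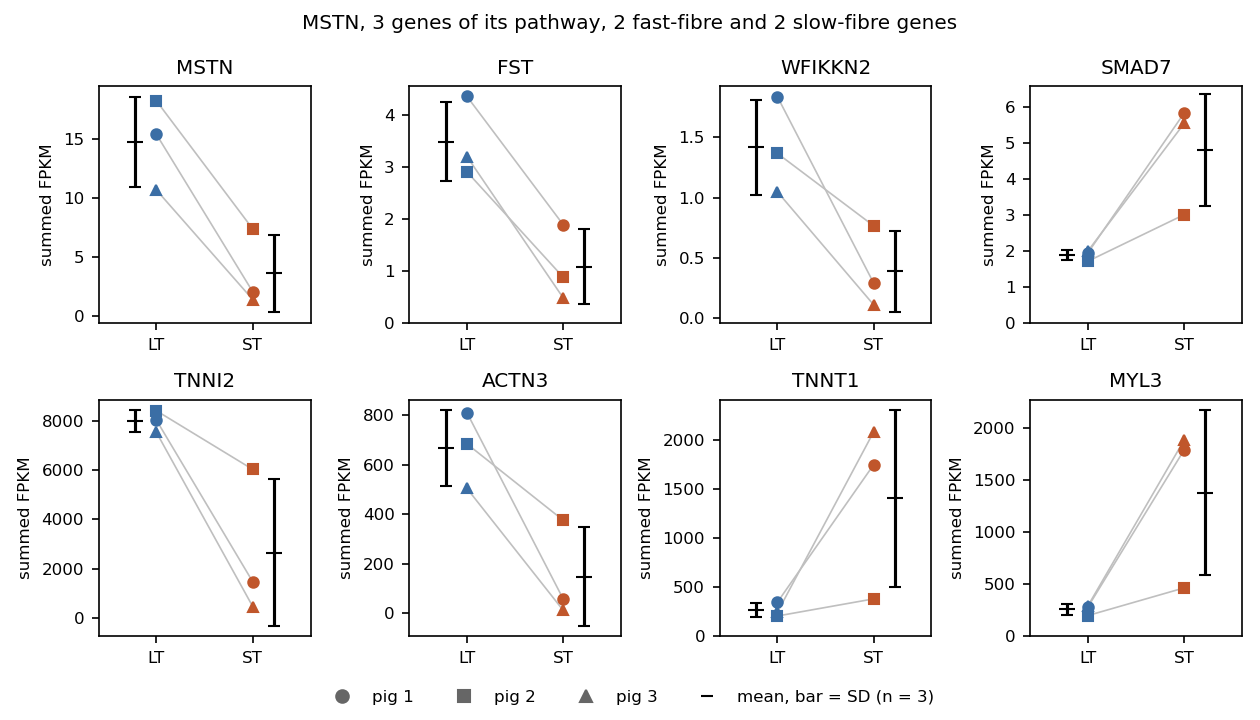
Summed FPKM (linear axes, each with its own range) of MSTN, of 3 genes of its pathway, of the fast-fibre genes TNNI2 and ACTN3 and of the slow-fibre genes TNNT1 and MYL3; symbols mark the pig, grey lines join LT and ST of a pig, and black bars give mean and SD (n = 3). ST of pig 2 (squares) is the ST library nearest to LT in MSTN (7.36 FPKM), WFIKKN2, SMAD7 and the 4 fibre-type genes, but not in FST.

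In MSTN, ST of pig 2 lay between the other ST libraries and LT. The same was seen in the 7 of 12 fibre-type genes whose muscles did not overlap, against 24.8% of all genes not overlapping. In the others, MYL2 and TNNC1 among them, ST of pig 2 lay within the range of LT, or above it in ATP2A1 (1499 FPKM). Of 12 genes tested, 0 were called by limma, and 6 were higher and 5 lower in ST at an unadjusted p under 0.05, or 91.7% against 19% of all genes. With the pig as a block 3 were called (MYL3, TNNT1 and ATP2A2, all higher), against 4.26% of all genes, and without ST of pig 2 there were 11, against 5.15%. ACTN3, an actinin of fast fibres, was at 810, 684 and 504 FPKM in LT and at 56.3, 375 and 10.4 in ST, so it too was nearest to LT in ST of pig 2. MYL3, the slow light chain, was at 283, 200 and 293 FPKM in LT and at 1789, 465 and 1884 in ST. The most abundant genes of the list were TNNC2 of fast fibres and MYL2 and TNNC1 of slow ones, with log2FC of −2.40, 2.09 and 1.73. The heavy chain genes MYH7, MYH2, MYH1 and MYH4 were not matched by symbol. The part of fibre type in the difference of MSTN was not tested.

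Satellite cells were further described with 18 marker genes, of which 17 were found and tested. Without the block 0 were called by limma, and 5 were higher and 1 lower in ST at an unadjusted p under 0.05, or 35.3% against 19% of all genes. Their median log2FC was 0.30. SPRY1, an inhibitor of growth factor signalling, was at 8.05, 6.58 and 12.1 FPKM in LT and at 19.8, 22.3 and 25.3 in ST (log2FC 1.36, limma adjusted p = 0.0587). HEY1, a target of Notch, was at 2.13, 1.81 and 1.63 FPKM in LT and at 8.24, 3.50 and 5.18 in ST (log2FC 1.48, limma adjusted p = 0.0713). Both were called with the pig as a block, with limma adjusted p of 0.0215 and 0.0274, in a fit that called 4.26% of all genes. Both were also called without ST of pig 2, with 0.0374 and 0.0144. CDH15, the M-cadherin of satellite cells and myoblasts, had the opposite direction, with 7.84, 6.42 and 10.2 FPKM in LT and 3.83, 5.45 and 4.51 in ST (log2FC −0.80, limma adjusted p = 0.122). The proteoglycan SDC3 had a log2FC of 0.79, and the abundant VCAM1 and ITGA7 had −0.40 and −0.34. So the markers of this cell type did not share 1 direction.

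Markers of vessels were also higher in ST, the direction of SPRY1 and HEY1. PECAM1 and CDH5 of the endothelium were called higher in ST, with log2FC of 1.39 and 1.22 and limma adjusted p of 0.0424 and 0.0399. Neither call was kept when any library other than ST of pig 2 was left out. Both were also lost after quantile normalization, with no filter on FPKM and with no variance trend. The 4 endothelial markers found summed to 47.1 to 71.0 FPKM in LT and 113 to 164 in ST, and the 4 markers of smooth muscle and pericytes to 94.0 to 106 and 168 to 224. RGS5 of pericytes had a log2FC of 1.21 (limma adjusted p = 0.0539). Without ST of pig 2 RGS5 was called (limma adjusted p = 0.0127), in a fit that called 5.15% of all genes. It was also called with the pig as a block (limma adjusted p = 0.0215), against 4.26% of all genes. The part of vessels in the values of SPRY1 and HEY1 was not tested. Of the other markers, LPL, a lipase that muscle fibres also express, was called higher in ST. Its call was again lost without any library but ST of pig 2, and also with no variance trend. The other 5 adipocyte genes had log2FC below 0. The lists of fibroblasts, leukocytes, Schwann cells and muscle fibres held 0 calls, with 0, 1, 0 and 1 genes at an unadjusted p under 0.05.

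Partners and inhibitors of the myogenic factors were described with 26 genes, of which 24 were found and tested. Limma called 0 of them, and 8 were higher and 1 lower in ST at an unadjusted p under 0.05, or 37.5% against 19% of all genes. Their median log2FC was 0.35. ID1, which keeps the partners of the myogenic factors from binding DNA, was at 46.4, 26.9 and 21.9 FPKM in LT and at 106, 76.5 and 116 in ST (log2FC 1.69, limma adjusted p = 0.0582). ID2 and ID3 had log2FC of 1.04 and 0.86, and the partner TCF4 had 0.79. HDAC9, a repressor of MEF2 factors, had a log2FC of 1.12 (limma adjusted p = 0.126), and the abundant MEF2C had 0.62. With the pig as a block ID1 and HDAC9 were called, with limma adjusted p of 0.0254 and 0.0311, against 4.26% of all genes. Without ST of pig 2, 4 genes of the list were called (ID1, ID3, HDAC9 and HES1), against 5.15% of all genes.

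The fusion list held 19 genes, of which 15 were found and 12 tested. Limma called 0 with and without the block, and 3 were higher and 1 lower in ST at an unadjusted p under 0.05, or 33.3% against 19% of all genes. ARF6 and DOCK1, which act on the actin skeleton, and MYOF had log2FC of 0.60, 0.55 and 0.72, whereas the tetraspanin CD9 had −0.75. The abundant ITGB1, RAC1 and CD81 had 0.13, 0.03 and 0.21. MYMX, the partner of MYMK, was not matched by symbol.

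Targets of MYOG and markers of immature or denervated fibres numbered 17, of which 14 were found and tested. Limma called 0, and 1 was higher and 2 lower in ST at an unadjusted p under 0.05, or 21.4%, near the 19% of all genes. CHRNA1, a subunit of the acetylcholine receptor, was at 1.87, 2.61 and 2.27 FPKM in LT and at 8.11, 3.11 and 7.82 in ST (log2FC 1.35, limma adjusted p = 0.111). MYH8, the perinatal heavy chain, was at 54.8, 54.5 and 54.1 FPKM in LT and at 10.4, 65.0 and 4.31 in ST. In CHRNA1, too, ST of pig 2 was the nearest to LT, and in MYH8 it was the highest library. Without it both were called, CHRNA1 with a log2FC of 1.79 (limma adjusted p = 0.00714) and MYH8 with −3.00 (limma adjusted p = 0.00585). MYBPH had a log2FC of −1.98 and was called with the block (limma adjusted p = 0.0184), against 4.26% of all genes, but not without ST of pig 2 and without the block (limma adjusted p = 0.202). The abundant DES and CKM had 0.70 and 0.32, and CDKN1A had −0.68.

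**Figure D4:**
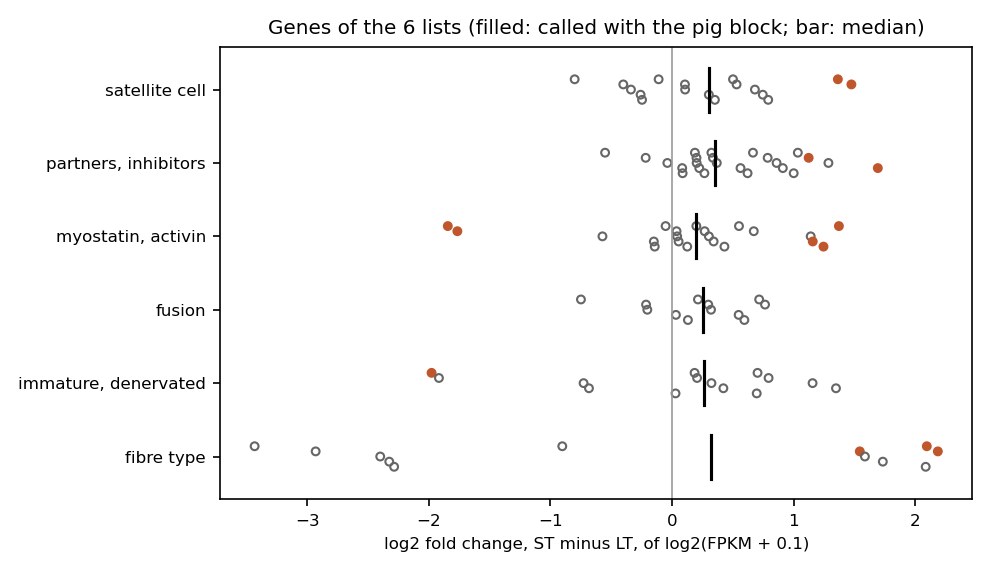
Log2FC (ST minus LT, of log2(FPKM + 0.1)) of the genes tested in 6 lists, 1 point per gene; filled points were called by limma with the pig as a block, and the black bar is the median of each list. The medians lie between 0.20 and 0.35, and FST, WFIKKN2 and MYBPH are the filled points below 0.

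Transcripts on the opposite strand overlapped 5 of the 8 genes (MYOD1, MYF5, MYF6, MYOG and PAX7). None was found for MSTN, MYMK or PAX3. LNC_008174 (chromosome 5, 100762871 to 100764763, plus strand) covers MYF6 with the same number of exons, 3, and was at 23.1, 11.13 and 14.6 FPKM in LT and at 33.2, 25.5 and 10.7 in ST. Like MYF6, it was highest in ST of pigs 1 and 2. Its FPKM times length was 3.69% to 8.74% of that of MYF6. The same share was 8.57% to 10.1% for LNC_005590 over MYOD1, 6.63% to 8.97% for Novel_008247 over MYOG, 2.61% to 8.90% for Novel_007122 over PAX7 and 0% to 13.4% for Novel_006184 over MYF5. Novel_006185, a long model over MYF6, was listed above 0 in ST of pig 2 alone, at 2.99 FPKM.

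Pairs of this kind were found in the whole table. Each pair compared held an annotated mRNA with FPKM of at least 1 in every library and an unannotated transcript on the other strand. Both had the same exon number, more than 1, and at least 80% of each span was shared. Over 2147 such pairs the median share was 3.66% to 4.61% per library. Of the pairs above, those of MYF6 and MYOG met these conditions, and those of MYOD1, MYF5 and PAX7 did not. MYF5 and PAX7 did not meet the condition on FPKM, whatever their overlap. LNC_008174 lay between percentiles 50.1 and 73.8 of these pairs. The library kit kept the strand, but whether strand was used in the assembly is not given in the sources used here. Reads of a gene and of its opposite-strand partner therefore cannot be told apart, and these values are uncertain.

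**Figure D5:**
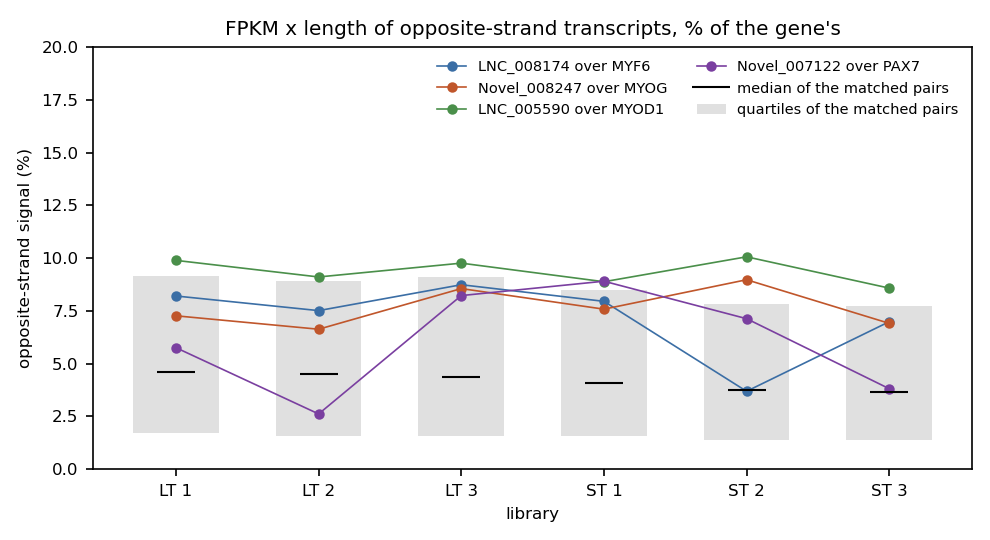
FPKM times length of 4 opposite-strand transcripts, in percent of the gene they overlap, in each library (coloured points, joined for reading). Grey bars give the range between the quartiles and black lines the median of 2147 pairs. These have the same exon number and at least 80% of each span shared, with the annotated mRNA at FPKM of at least 1 in every library. They include the pairs of MYF6 and MYOG and not those of MYOD1 and PAX7. LNC_008174 stays between 3.69% and 8.74% of MYF6.

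Within 100000 bp of the 8 genes, 10 lncRNAs are listed, next to 5 of the genes, and 5 of the lncRNAs had FPKM above 0.1 in at least 3 libraries. These were LNC_008174 and LNC_005590, described above, LNC_006046 at 59700 bp from MYOD1, LNC_011501 at 42997 bp from MYOG and LNC_001134 at 8148 bp from MYMK. LNC_011501 was between 0.161 and 0.647 FPKM, LNC_001134 between 0.0574 and 0.393, and LNC_006046 between 0.0403 and 0.297. None of the 10 was called by limma, and 0 had an unadjusted p under 0.05, against 9.69% of all transcripts. MSTN, PAX3 and PAX7 had no lncRNA in this window.

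The genes most like each of the 7 in pattern were taken from 9059 genes (9060 for MYMK) with mean FPKM of at least 1, as a description over 6 libraries. The measure was the root mean square difference of log2(FPKM + 0.1), centred per gene. For MSTN they were BPGM (0.235), PGM2L1 (0.267) and MAF (0.274), beside a spread of MSTN itself of 1.38. BPGM was at 18.9, 21.6 and 20.1 FPKM in LT and at 2.58, 11.8 and 2.004 in ST. Its intermediate level in ST of pig 2 follows from its choice by pattern. For PAX7 they were PRP4K (0.0225), SRRM2 (0.0257) and CCNL2 (0.0574), all genes of RNA splicing or of its kinases and cyclins, beside a spread of 0.239.

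For MYF6 the nearest were TMEM100 (0.263), CSRP2 (0.303) and BEST3 (0.303), and for MYOG they were RNPC3 (0.218), TFAP4 (0.243) and CACNG1 (0.248), the last a subunit of the calcium channel of muscle. MYF5 was most like NFATC2 (0.108), ZNF385A (0.203) and PITPNB (0.211), and MYOD1 like SLC16A9 (0.0631), PKDCC (0.127) and TLE1 (0.158). MYMK was most like RGS4 (0.111), ARMCX2 (0.137) and GNB5 (0.148). Like MYF6 and MYF5 themselves, the 3 genes nearest to each were highest in ST of pig 2, which follows from their choice by pattern.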

How the data were processed

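Per the labels and the methods of the study, the authors removed rRNA, made directional libraries, trimmed reads by SOAPnuke, aligned by HISAT2 on Sscrofa11.1 and assembled by StringTie. The deposited values are FPKM, 1 per transcript and library. The Ensembl release and the strand setting are not given in the sources used here. Values of all transcripts with 1 gene ID were added up, and 14657 of 25973 gene IDs had a symbol. LT and ST were compared by limma-trend (limma 3.58.1, R 4.3.3) after log2(FPKM + 0.1), for genes that passed FPKM 0.1 in any library, and transcripts were fitted apart. A fold change on this scale understates the change of low genes. Other values came from Python 3.11.15 with numpy 2.4.6, scipy 1.17.1, pandas 2.3.3 and matplotlib 3.10.9. Simulated data with known changes were used to test the fit.

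Samples with the same number were taken to come from the same pig. The study states that both muscles were sampled from 3 pigs, and the labels give only a replicate number per muscle. Over 19679 genes, the deviations from the muscle means correlated at 0.276 to 0.303 for the same number and at −0.199 to −0.116 for different numbers. The deviations of the 3 libraries of a muscle cancel out, so positive values for the same number make the others negative. The pig was used as a block beside the fit without it. Without the block, the p-values set a difference against the spread of the 3 libraries within a muscle. With the block, they set it against the spread of the difference over the 3 pigs. Each muscle of a pig gave a single library, so the spread of animals, samples and libraries cannot be told apart.

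The genes and lists were chosen with earlier results of these data known. Named were all 8 genes, their transcripts over FPKM 0.1 in any library, lncRNAs within 100000 bp over FPKM 0.1 in 3 or more libraries, called list genes, the 4 of each list with the smallest p and the 3 with the highest mean, and the 3 genes nearest in pattern. Other genes (INHBB, WFIKKN1, FSTL3, LTBP3, HES1, TNNI2, ATP2A1, and the markers of other cell types) were named for a comparison after their values were seen. The comparison of opposite-strand pairs was chosen in the same way. Since the values are FPKM, no count model was fitted. Alternatives were other pseudocounts and filters, the block, other scalings, no trend, Ensembl transcripts alone and leaving out each library. No sequences were used.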

Additional observations from a re-analysis of the deposited data

How the results depend on the processing

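The 7 genes tested kept their direction under the 15 alternatives tried, except MYOD1, and their side of the threshold, except MSTN. The log2FC of MYOD1 was −0.39, and without 1 library it was −0.76 to 0.023 (0.023 without ST replicate 3), as for its transcript ENSSSCT00000014609. That of ENSSSCT00000078484 of MYF6 was −0.16 to 3.18, with −0.16 without ST replicate 2. With the pig as replicate block the log2FC of MSTN was −2.34 (limma adjusted p = 0.0223), and the block changed no other call of the 7. Leaving out 1 library gave MSTN −3.02 to −1.86, MYF6 0.41 to 1.49 and the log2 ratio of MYOD1 to MYOG −0.21 to 0.76, with −0.21 without ST replicate 2. Over all genes 114 were called, 838 with the replicate block, 31 with no filter, 31 with no variance trend, 62 after quantile normalization, 272 when rescaled without mitochondrial transcripts, and 11 to 1006 without 1 library (20, 19 and 11 without LT replicates 1, 2 and 3, and 23, 1006 and 22 without ST replicates 1, 2 and 3).

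The 6 lists of the muscle programme held 0 calls without the block, and the lists of other cell types held 3 (PECAM1, CDH5 and LPL). With the replicate block there were 2 satellite cell genes, 2 partners and inhibitors, 5 genes of the myostatin pathway, 1 of immature fibres and 3 of fibre type. Rescaled without mitochondrial transcripts there were 2 satellite cell genes and 1 partner, and with a filter of FPKM above 1 there were 1 and 1. Leaving out 1 library gave 0 to 2 satellite cell genes, 0 to 4 partners, 0 to 3 genes of the myostatin pathway, 0 to 2 of immature fibres and 0 to 11 of fibre type, with each highest count without ST replicate 2. Within 50000 bp of the genes there were 6 lncRNAs in place of 10. The cause of these changes was not tested. The files give no counts, so the precision of values near 0.1 FPKM is unknown.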
